A study of Mus musculus with 12 samples.

Results

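Intercalated disc adhesion genes were followed across sorted cardiac Purkinje cells (PCs) and ventricular myocytes (VMs) of *Ncam-1* wild-type (WT) and knockout (KO) mice. The list holds 10 of the 48526 genes in the count tables: the desmosomal cadherins *Dsg2* and *Dsc2*, the desmosomal plaque genes *Dsp*, *Pkp2* and *Jup*, the adherens junction genes *Cdh2*, *Ctnna1* and *Ctnna3*, and *Tjp1* and *Cxadr*. Members are named by gene symbol for their place at the disc, the rule itself uses no measured value, and all 10 were found by their Ensembl identifiers. RNA was sequenced from adult hearts in 12 libraries, 3 for each of WT PC, KO PC, WT VM and KO VM. The KO groups were *Ncam-1*-/- and lack the neural cell adhesion molecule in every tissue, from a line kept on C57BL/6, and the WT groups were *Ncam-1* WT. Every group also carried the *Cntn2*-EGFP BAC transgene, kept on CD1, which marks the Purkinje fibres with GFP, and the lines had been crossed, so the background of all groups is mixed. Enzymatically dissociated ventricular cells were loaded with the mitochondrial dye TMRM at 50 nM, and dye-positive cells were sorted by GFP into PCs (RFP+GFP+) and VMs (RFP+GFP-). The sources used here do not give the age in weeks or the sex of the animals, nor whether separate libraries came from separate hearts, so p-values measure the spread between these libraries, which may be partly technical.

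Neighbouring cardiomyocytes are held together end to end at the intercalated disc. In desmosomes, cadherins bind across the gap between cells and are tied through plakoglobin, plakophilin and desmoplakin to desmin filaments, whereas adherens junctions tie N-cadherin through catenins to the actin of the last sarcomere. Loss of desmosomal proteins is known to cause arrhythmogenic cardiomyopathy, and the Purkinje fibres that carry the impulse through the ventricle are coupled by discs built from the same proteins.

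The promoters of the most and of one of the least abundant plaque genes are shown because the levels of these genes differed more than those of any other plaque pair. The RefSeq promoter table (GRCm38.p6) held windows for 4 of the 10 genes, *Dsp*, *Jup*, *Tjp1* and *Ctnna3*, and the 250 bases before the transcription start of the first pair follow, 5′ to 3′ on the gene's strand. Capitals mark GGGCGG, searched on both strands, so that its reverse complement CCGCCC is also in capitals.
Dsp, chr13:38151044-38151293, plus strand: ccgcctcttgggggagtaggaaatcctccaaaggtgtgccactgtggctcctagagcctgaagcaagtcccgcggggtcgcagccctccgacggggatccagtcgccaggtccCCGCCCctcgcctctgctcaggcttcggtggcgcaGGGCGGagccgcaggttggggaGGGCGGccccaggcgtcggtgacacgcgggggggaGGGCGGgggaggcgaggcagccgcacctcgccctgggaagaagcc
Jup, chr11:100397791-100398040, minus strand: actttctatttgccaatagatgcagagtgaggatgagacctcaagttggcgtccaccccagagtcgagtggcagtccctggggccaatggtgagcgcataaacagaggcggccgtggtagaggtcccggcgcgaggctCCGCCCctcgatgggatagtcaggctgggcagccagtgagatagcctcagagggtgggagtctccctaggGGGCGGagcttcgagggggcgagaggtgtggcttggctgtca
The *Dsp* window held 4 matches and the *Jup* window 2, where 4.09% of the 32851 windows of the same length in the table held 4 or more and 16.7% held 2 or more. G and C made up 72.4% of the bases before *Dsp* and 62.0% of those before *Jup*, against a median of 52.4% over all windows. TATAAA, searched on both strands, was in neither of these windows and in 12.4% of all of them. A match describes these letters only, and none was tested as a binding site.

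The libraries held 1532393 to 6761356 counts on genes outside the mitochondrial genome and 7103 to 40994 counts on the 10 genes together. Counts of *Ncam1*, which the knockout targets, were 83, 34 and 116 in the WT PCs, 0, 1 and 1 in the KO PCs, 6, 0 and 9 in the WT VMs and 0 in each KO VM. Transcripts of the 12 listed cardiomyocyte markers were present in every library, with none at 0 and summed normalized counts from 472950 to 737930. *Cntn2*, whose reporter defined the sort, had 236.7 to 532.8 normalized counts among the WT PCs, 38.67, 49.24 and 452.4 in the KO PCs and 2.22 to 8.99 in the VMs, so 2 of the KO PC libraries carried less of this Purkinje marker than the third. The library WT PC 2 stood apart. In it, 63.94% of read pairs were not aligned (95% Wilson interval 63.92 to 63.95, counting error only), where 18.8 to 24.7% were not in the others. Only 11847 genes had counts there, where the remaining 11 libraries had 13571 to 18129, and its Spearman correlation with them had a median of 0.828, where their own medians were 0.872 to 0.890.

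Per unit of transcript length, the genes fell into a steep and stable order. Levels between genes are given in TPM, computed here as counts per kilobase of merged exons scaled to a common total over genes outside the mitochondrial genome. *Dsp*, desmoplakin, the anchor of desmin filaments, was first in 12 of 12 libraries, and was followed in all 12 by *Ctnna1* (αE-catenin), *Cdh2* (N-cadherin) and *Pkp2* (plakophilin-2), in that order. Mean *Dsp* levels were 1172 ± 525 TPM in WT PCs, 1352 ± 107 in KO PCs, 1388 ± 186 in WT VMs and 1572 ± 52.4 in KO VMs (SD, n = 3 each). Those means ranked *Dsp* 113th, 94th, 95th and 85th among the 17412 to 19933 genes with counts in a group. *Dsp* alone made up 38.4 to 51.4% of the summed per-length level of the 10 genes. Its level was 1.86 to 3.65 times that of *Ctnna1* and 19.0 to 31.5 times that of *Jup*.

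Below *Pkp2*, the order changed from library to library. *Dsg2*, *Dsc2* and *Tjp1* took places 5 to 7, and *Jup*, *Ctnna3* and *Cxadr* places 8 to 10, in 10 of 12 libraries. *Jup* (plakoglobin), the one plaque protein that desmosomes and adherens junctions share, was last in 5 libraries, *Cxadr* in 4 and *Ctnna3* in 3. In the mean order of each group, *Dsp* and *Ctnna1* did not overlap in any group. *Ctnna1* and *Cdh2* overlapped in the KO PCs only, and *Cdh2* and *Pkp2*, like *Pkp2* and *Dsg2*, overlapped in the WT PCs only. Among the lower genes, all neighbouring ranges overlapped except *Dsc2* and *Cxadr* in the KO VMs, so most of those neighbours did not separate beyond their spread. Some kept one order within each of the 3 libraries of a group all the same, such as *Dsg2* above *Tjp1* in the KO VMs and *Dsg2* above *Dsc2* in the WT VMs. WT PC 2 was the lowest of the 12 libraries for 8 of the 10 genes on the TPM scale, and for 5 of the 10 in normalized counts.

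**Figure D1:**
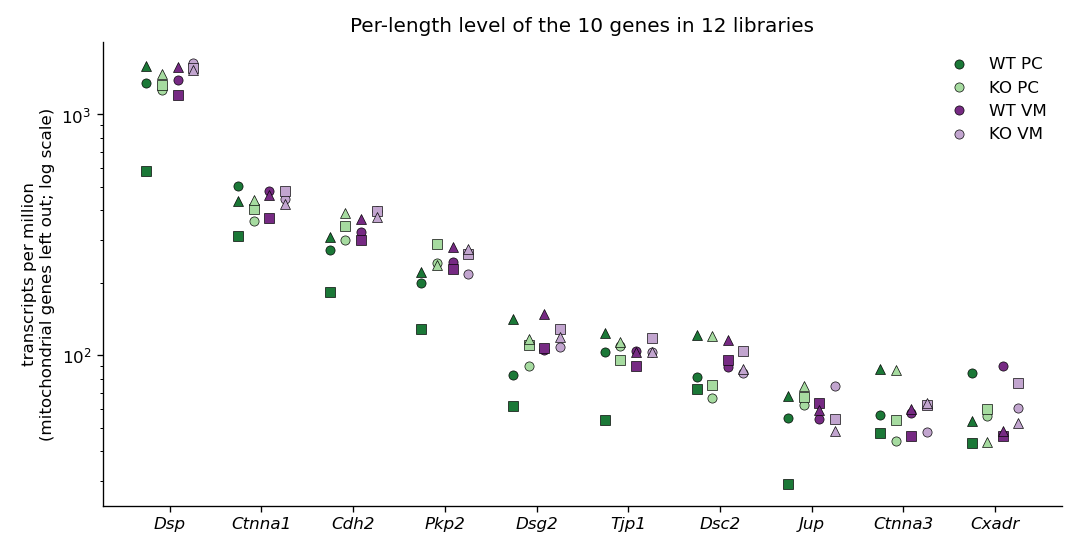
Per-length level of each gene in TPM (log scale), 1 point per library, with groups in color and replicates 1, 2 and 3 as circles, squares and triangles. *Dsp* lies above all other genes in every library, and the green squares of WT PC 2 are the lowest points for 8 of the 10 genes.

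The desmosomal cadherins *Dsg2* and *Dsc2*, which bind their partners on the neighbouring cell, were present at similar levels. For *Dsg2*, normalized counts were 537.9, 589.1 and 828.1 in the WT PCs, 606.4, 693.1 and 667.6 in the KO PCs, 630.2, 761.4 and 935.5 in the WT VMs and 732.6, 801.3 and 772.2 in the KO VMs. The WT libraries spread widely and the KO libraries narrowly, and every KO PC was below every KO VM. For *Dsc2*, the counts were 334.3, 440.8 and 453.0 in WT PCs, 284.8, 303.0 and 439.7 in KO PCs, 342.3, 431.1 and 466.7 in WT VMs and 363.5, 413.5 and 363.5 in KO VMs. All groups of *Dsc2* overlapped, and its highest and lowest libraries differed 1.64-fold. The per-length ratio of *Dsg2* to *Dsc2* was 1.02 ± 0.157 in WT PCs, 1.26 ± 0.259 in KO PCs, 1.19 ± 0.0778 in WT VMs and 1.29 ± 0.0598 in KO VMs (SD, n = 3 each). Paralogues that build the desmosomes of skin were nearly absent. *Dsg1a*, *Dsg3*, *Dsc1*, *Dsc3*, *Pkp1* and *Pkp3* together had 13 counts over all 12 libraries, and none had more than 5 in a library.

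Of the plaque genes, *Dsp* separated the KO groups and *Pkp2* set the WT PCs apart. *Dsp* had 10189, 6511 and 10893 normalized counts in the WT PCs, 9929, 9737 and 9867 in the KO PCs, 9708, 9954 and 11573 in the WT VMs and 12864, 11399 and 11553 in the KO VMs. The KO PCs all lay below the KO VMs, whereas the WT groups overlapped and the low value was WT PC 2. *Pkp2*, which joins desmoplakin to the cadherin tails, had 841.3, 795.8 and 842.5 normalized counts over the WT PC libraries, 1051, 1178 and 886.1 in KO PCs, 943.4, 1044 and 1146 in WT VMs and 953.2, 1065 and 1165 in KO VMs. The 3 WT PC libraries were the lowest of all 12 for *Pkp2*, and the other groups overlapped each other. *Jup* had 275.5, 216.5 and 309.2 normalized counts over the WT PC libraries, 325.2, 329.5 and 332.8 in KO PCs, 253.2, 348.2 and 290.7 in WT VMs and 391.8, 264.5 and 244.3 in KO VMs. The KO PCs were tight and above the WT PCs, and both VM groups spread around them.

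Of the adherens junction genes, *Cdh2* separated the groups most. *Cdh2*, the classical cadherin of the disc, had 1722, 1717 and 1783 normalized counts in the WT PCs, 1983, 2106 and 2175 in the KO PCs, 1901, 2077 and 2267 in the WT VMs and 2621, 2412 and 2361 in the KO VMs. Every WT PC lay below every library of the other groups and every KO VM above them, with KO PCs and WT VMs overlapping in between. *Ctnna1*, which ties the cadherin complex to actin, had 2532, 2331 and 1999 normalized counts over the WT PC libraries, 1884, 1991 and 1979 in KO PCs, 2238, 2041 and 2265 in WT VMs and 2342, 2333 and 2141 in KO VMs. The KO PCs were the 3 lowest libraries for *Ctnna1*, by a margin of 1991 to 1999 at the nearest pair. How many of all genes have 1 group apart from all other libraries, as *Cdh2*, *Ctnna1* and *Pkp2* do, was not computed. *Ctnna3* (αT-catenin), a catenin found mainly in heart and testis that binds plakophilin-2, had 320.0, 397.9 and 450.2 normalized counts over the WT PC libraries, 260.1, 295.4 and 434.4 in KO PCs, 302.0, 285.2 and 328.4 in WT VMs and 282.9, 340.3 and 358.9 in KO VMs. These groups all overlapped. *Ctnna1* exceeded *Ctnna3* 6.83 ± 1.96-fold per unit of length in WT PCs and 6.95 ± 1.61-fold in KO PCs, and 8.05 ± 0.288-fold in WT VMs and 7.91 ± 1.31-fold in KO VMs (SD, n = 3 each). Neural *Ctnna2* had 0 counts in all libraries.

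*Tjp1* (ZO-1), a scaffold at the edge of gap junction plaques, was the steadier of the remaining pair. Its normalized counts were 630.7, 485.7 and 685.4 in WT PCs, 696.1, 569.4 and 616.1 in KO PCs, 591.7, 602.4 and 611.6 in WT VMs and 660.5, 698.5 and 629.8 in KO VMs. Each KO VM was above each WT VM, and the PC groups overlapped. *Cxadr*, the coxsackievirus and adenovirus receptor, an adhesion molecule needed for conduction through the atrioventricular node, had 487.3, 370.6 and 280.8 normalized counts over the WT PC libraries, 337.5, 338.4 and 223.9 in KO PCs, 483.0, 291.8 and 273.6 in WT VMs and 366.3, 428.9 and 304.5 in KO VMs. Its groups overlapped in every comparison, and replicates of 1 group differed by more than the group means did.

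**Figure D2:**
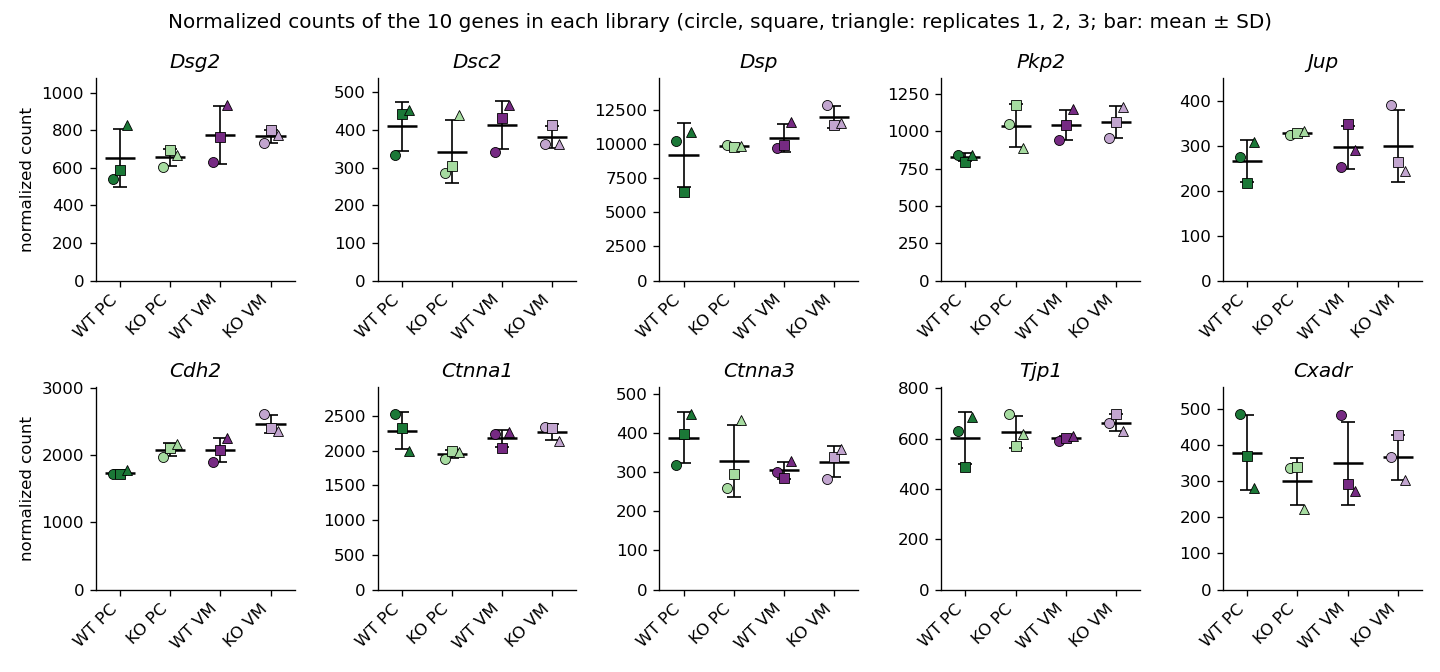
Normalized counts of the 10 genes (y axes start at 0), 1 point per library, with the mean and SD of each group of 3. The WT PCs of *Cdh2* and *Pkp2* lie below the other groups, the KO VMs of *Cdh2* above them, and the square of WT PC 2 stands apart for *Dsp*.

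Whether PCs differ from VMs in these genes was asked first in WT hearts. No member passed an adjusted p of 0.05 in edgeR's quasi-likelihood test, where 0.11% of the 11822 genes tested did. At an unadjusted p of 0.05 none passed either, against 6.36% of all genes, and DESeq2 and limma voom also called none at either threshold. Log2 fold changes of PCs over VMs ran from -0.37 to 0.32 and had a median of -0.11, with 7 of 10 below 0, where 50.3% of all genes were, and the median of all genes was 0.00. *Pkp2* at -0.37 (SE 0.194, adjusted p = 0.801, edgeR) and *Cdh2* at -0.29 (SE 0.186, adjusted p = 0.824, edgeR) were lower in 3 of 3 WT PCs than in any WT VM. Such a gap downward was seen in 6.56% of the genes tested, and in either direction in 13.9%. The lowest limit of an interval was 0.550-fold, for *Dsg2*, and the highest 1.78-fold, for *Ctnna3*, so changes within these bounds were not excluded for every gene. All 10 intervals lay between 0.5-fold and 2-fold, and 3 of them within 1.5-fold of no change. Without WT PC 2, the log2 fold change of *Dsp* went from -0.21 to 0.00 and the median of the 10 genes to -0.02.

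The same comparison was made in KO hearts, where 8 of the 10 genes had lower estimates in PCs. No member passed the adjusted threshold with edgeR, DESeq2 or limma voom, where 0.872% of the 10779 genes tested did with edgeR. The median log2 fold change of PCs over VMs was -0.18, against 0.01 for all genes tested, and 48.9% of all genes were below 0. *Dsp* was lower in PCs by a log2 fold change of -0.28 (SE 0.125, unadjusted p = 0.0404, adjusted p = 0.483, edgeR), 0.686-fold to 0.991-fold of the VM level at 95% confidence. It was the only member with an unadjusted p under 0.05, which 2.6% of all genes reached in this direction, and DESeq2 and limma voom had the same single member. That p rose above 0.05 when any of the 6 libraries was left out. *Dsp*, *Dsg2*, *Cdh2* and *Ctnna1* were lower in every KO PC than in any KO VM, 4 of 10 against 6.92% of all genes. The gap was not particular to these genes. Of the 12 cardiomyocyte markers, with a median log2 fold change of -0.12, 3 had it too. So did 4 of 16 other genes listed as disc associated. Of all 36 other junction genes tested, 5 were lower and 4 higher without overlap. For *Dsg2*, *Cdh2* and *Ctnna1*, the log2 fold changes were -0.23 (SE 0.136), -0.24 (SE 0.126) and -0.22 (SE 0.125). With cardiomyocyte genes as size factors, the median of all genes in this comparison went from 0.01 to 0.14 and that of the members from -0.18 to -0.06. No member had an unadjusted p under 0.05 in edgeR with these size factors. Other size factors shift all genes by nearly the same amount. The members' median relative to that of all genes, -0.19 before and -0.20 after, was therefore bound to stay about the same.

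Averaged over both genotypes, 9 of the 10 genes were below 0 in PCs against VMs, where 48.1% of all genes were, and *Ctnna3* was above 0 at 0.18 (SE 0.155). The median was -0.08, against 0.02 for the 11323 genes tested. *Cdh2* had a log2 fold change of -0.25 (SE 0.103, 95% interval 0.723-fold to 0.979-fold, unadjusted p = 0.0284, adjusted p = 0.350, edgeR). It was the 1 member of 10 with an unadjusted p under 0.05, which 2.82% of all genes reached in this direction, and the only one with DESeq2 and limma voom. That p rose above 0.05 with cardiomyocyte genes as size factors, with no filter on low counts, and without KO PC 1, WT VM 2 or WT VM 3. No member passed after adjustment with any of the 3 tools, as against 1.47% of all genes with edgeR. All 10 intervals lay within 1.5-fold of no change, with the lowest limit at 0.689-fold, for *Dsg2*, and the highest at 1.43-fold, for *Ctnna3*. This average shares its libraries with the comparisons within each genotype.

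Transcripts of several other cell types moved with the sort. Summed normalized counts of 10 endothelial markers were 573.4 to 1775 in the PC libraries and 79.2 to 604.9 in the VMs, and those of 8 fibroblast markers 675.6 to 1703 and 66.5 to 403.2. The sum of 8 smooth muscle and pericyte markers was 994.4 to 2454 in the PCs and 246.1 to 980.9 in the VMs, and that of 8 leukocyte markers 82.6 to 154.1 and 10.3 to 41.3. Sums of 8 epicardial and mesothelial markers were low and overlapped, at 5.3 to 102.3 in the PCs and 2.8 to 28.9 in the VMs. In any PC library none of the endothelial markers was at 0 and no more than 1 of the fibroblast markers. *Jup*, *Ctnna1*, *Tjp1* and *Cdh2* are also used by cells other than cardiomyocytes. The part of these cells in the differences between PCs and VMs was not tested. In sorted pools, fewer cells of a type and less RNA per cell cannot be told apart.

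**Figure D3:**
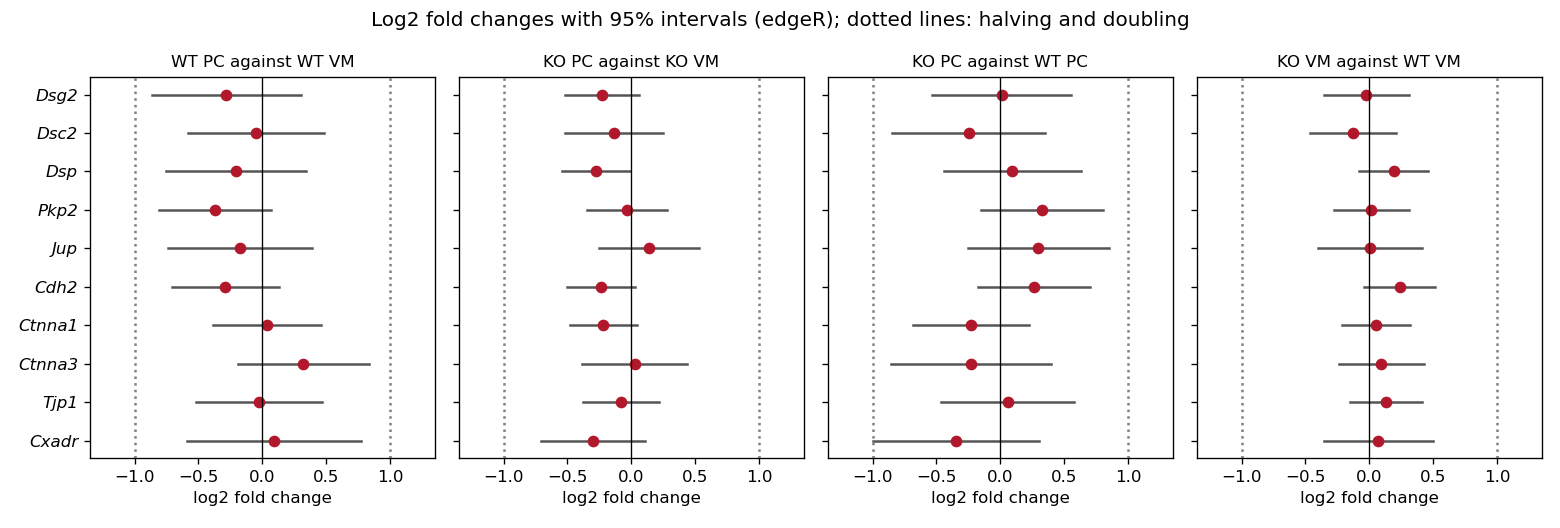
Log2 fold changes of the 10 genes in 4 comparisons of 3 against 3 libraries, with 95% intervals from edgeR, and dotted lines at 0.5-fold and 2-fold. All intervals lie between the dotted lines, and *Dsp* in KO PCs against KO VMs is the only one that does not reach 0.

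Whether loss of NCAM-1 changes these genes in PCs was asked next. No member passed an adjusted or an unadjusted p of 0.05 with edgeR, DESeq2 or limma voom, and with edgeR 0 of the 11754 genes passed the adjusted and 3.22% the unadjusted threshold. Log2 fold changes of KO over WT ran from -0.35 for *Cxadr* to 0.33 for *Pkp2*, with a median of 0.03 and 6 of 10 above 0, where 49.8% of all genes were. All 3 plaque genes were above 0, *Pkp2* at 0.33 (SE 0.214), *Jup* at 0.30 (SE 0.247) and *Dsp* at 0.09 (SE 0.240). *Pkp2*, *Jup* and *Cdh2* were higher in every KO PC than in any WT PC, against 4.82% of all genes, and *Ctnna1* was lower in every KO PC, against 4.7%. *Cdh2* stood at 0.26 (SE 0.196, 95% interval 0.887-fold to 1.63-fold, unadjusted p = 0.208, adjusted p = 0.993, edgeR) and *Ctnna1* at -0.23 (SE 0.204, 0.624-fold to 1.17-fold). Intervals were wide, with the lowest limit at 0.502-fold, for *Cxadr*, and the highest at 1.80-fold, for *Jup*, and 2 of 10 lay within 1.5-fold of no change. The sign of the members' median was not stable. It was -0.03 without WT PC 1, -0.10 without WT PC 2 and 0.20 without WT PC 3, and with all libraries it was -0.09 with limma voom and -0.15 with a length and GC correction. Without WT PC 2 the log2 fold change of *Dsp* was -0.11, where *Pkp2* stayed at 0.29 and *Cdh2* at 0.24. Purkinje marker sums were 274.2, 236.1 and 1013 normalized counts in the KO PCs and 602.0, 1309 and 1349 in the WT PCs, and 6 of the 8 markers were below 0, with a median log2 fold change of -1.20. KO PC 1 also had the highest endothelial sum of all libraries, 1775. The part of these shifts in the genotype values was not tested.

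In VMs, the effect of genotype was bounded more tightly. No member passed an adjusted or an unadjusted p of 0.05 with any of the 3 tools, and with edgeR 0.0373% and 5.12% of the 10737 genes tested did. Log2 fold changes of KO over WT ran from -0.13 for *Dsc2* to 0.24 for *Cdh2*, with a median of 0.06 against -0.02 for all genes, and 8 of 10 were above 0, where 47% of all genes were. *Cdh2* (0.24, SE 0.130, unadjusted p = 0.088, adjusted p = 0.959, edgeR) and *Tjp1* (0.13, SE 0.133) were higher in each KO VM than in any WT VM, a gap seen upward in 4.6% of all genes. With cardiomyocyte genes as size factors, the median of all genes went to -0.11 and that of the members to -0.03. All 10 intervals lay within 1.5-fold of no change, between 0.724-fold for *Dsc2* and 1.42-fold for *Cdh2*. Markers of other cells had lower estimates in the KO VMs, with median log2 fold changes of -0.83 for endothelial (9 of 9 tested below 0), -0.55 for fibroblast (6 of 6) and -0.79 for smooth muscle and pericyte markers (5 of 6). The lowest sums were those of KO VM 1. Endothelial sums were 79.2, 349.3 and 287.1 in KO VMs 1 to 3 and 604.9, 292.7 and 305.4 in the WT VMs. Fibroblast sums were 66.5, 322.3 and 265.1 against 403.2, 275.8 and 231.5. KO VM 1 was also the highest of the 12 libraries for *Dsp*, *Cdh2* and *Jup*. Among the KO VMs it was the lowest for *Dsg2*, *Pkp2*, *Ctnna3* and, by 363.48 to 363.53, *Dsc2*. The part of other cells in the values of the junction genes was not tested.

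Averaged over both cell types, *Cdh2* was higher in KO than in WT by a log2 fold change of 0.25 (SE 0.103, 95% interval 1.02-fold to 1.39-fold, unadjusted p = 0.0261, adjusted p = 0.925, edgeR). It was the 1 member with an unadjusted p under 0.05, which 1.58% of all genes reached upward, and the one with DESeq2 and limma voom as well. None passed after adjustment with any of these tools, against 0.0265% of all genes with edgeR. *Pkp2* (0.18, SE 0.117), *Jup* (0.15, SE 0.156) and *Dsp* (0.15, SE 0.129) followed, and *Dsc2* was lowest at -0.18 (SE 0.151). Over 23 alternatives, *Cdh2* kept its sign, between 0.16 and 0.29, with an unadjusted p under 0.05 in 16 (not with cardiomyocyte size factors, no filter or the length and GC correction, nor without KO PC 3, KO VM 1 or WT VM 1) and adjusted p-values of 0.510 or more. The fit took all 12 libraries as independent, though PC and VM libraries may come from the same hearts. If they do, the SE and p of this average may be too small. Its libraries are those of the genotype comparisons within each cell type.

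The genotype effects in PCs and in VMs were then compared with each other. No member differed at an adjusted or an unadjusted p of 0.05 with edgeR, DESeq2 or limma voom, and with edgeR 0 and 2.9% of the 11323 genes did. Differences of the log2 fold changes, PC minus VM, ran from -0.42 for *Cxadr* (SE 0.382) to 0.31 for *Pkp2* (SE 0.235). For *Cdh2*, the difference was 0.02 (SE 0.205), with an interval from 0.749-fold to 1.37-fold. Only 1 of the 10 intervals lay within 1.5-fold of no difference, and 9 within 0.5-fold to 2-fold, so a 1.5-fold difference between the effects was not excluded for 9 of 10 members. With cardiomyocyte genes as size factors, the median difference of all genes went from 0.01 to 0.14 and that of the members from -0.09 to 0.03.

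Ratios of genes within 1 library do not depend on how libraries are scaled. The per-length ratio of *Ctnna1* to *Cdh2* was 1.85, 1.70 and 1.41 in the WT PCs and 1.19, 1.19 and 1.14 in the KO PCs, and 1.48, 1.23 and 1.25 in the WT VMs and 1.12, 1.21 and 1.14 in the KO VMs. KO libraries were thus below WT libraries in both cell types without overlap, and this was the only one of 8 ratios computed of which that was so in either cell type. In PCs this had to follow from the levels given above. *Ctnna1* was already lower and *Cdh2* already higher in every KO PC than in any WT PC. The 8 pairs were picked by hand, and the share over all pairs of genes was not computed. *Dsp* to *Jup* was the 1 ratio of 8 that separated KO PCs, at 19.7 to 20.3, from KO VMs, at 21.9 to 31.5. No ratio separated WT PCs from WT VMs. No test of these ratios was run.

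**Figure D4:**
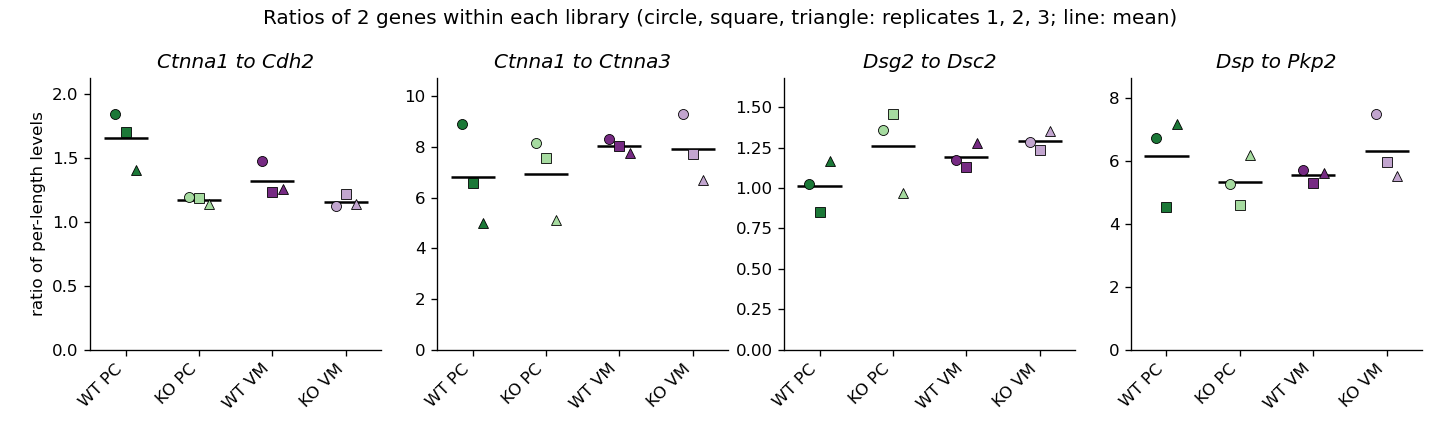
Ratios of per-length levels within each library for 4 pairs of genes (y axes start at 0), with 3 libraries and their mean per group. For *Ctnna1* to *Cdh2* the KO libraries lie at 1.12 to 1.21 and the WT libraries at 1.23 to 1.85.

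Of the 48 other junction genes listed, 36 or 37 had enough counts to be tested in each comparison, and none passed an adjusted p of 0.05 in any of the 7. In WT PCs against WT VMs, 1 of 37 had an unadjusted p under 0.05, upward, as did 5.14% of all genes. It was *Zyx* (zyxin, an actin-binding adhesion protein), at a log2 fold change of 1.16 (SE 0.426, adjusted p = 0.712, edgeR). In KO PCs against KO VMs, 2 of 36 were higher and 2 lower at that threshold, where 7.11% of all genes were higher and 2.6% lower. *Cgnl1* (paracingulin) was at 1.32 (SE 0.342) and *Afdn* (afadin, which binds nectins) at 0.54 (SE 0.184), while *Gja1* (connexin 43, the main gap junction protein of working myocardium) was at -0.40 (SE 0.140) and *Xirp2* (a Xin-repeat protein of the disc) at -0.40 (SE 0.133). For *Gja1*, normalized counts were 1014 to 1415 in WT PCs, 1166 to 1523 in KO PCs, 1446 to 1786 in WT VMs and 1631 to 1867 in KO VMs. No PC group of *Gja1* overlapped the VM group of the same genotype. In KO PCs against WT PCs, 0 of 37 reached an unadjusted p of 0.05. In KO VMs against WT VMs, 1 of 36 was higher and 1 lower at that threshold, which 5.12% of all genes reached in either direction. The lower one was *Nectin2*, an adhesion molecule bound by afadin, at -0.75 (SE 0.349). The higher one, from the disc associated list, had the smaller p (0.0227, edgeR) and is not reported here. Averaged over genotypes, 4 of 37 were higher and 1 lower in PCs at that threshold, where 8.54% of all genes were higher and 2.82% lower. The smallest p was that of *Clmp*, a relative of *Cxadr* with at most 35.1 normalized counts in a library, at 2.62 (SE 0.667, unadjusted p = 0.00125, adjusted p = 0.0662, edgeR). Averaged over cell types, *Clmp* was at -1.48 in KO against WT (SE 0.671, adjusted p = 0.925, edgeR). The 35.1 was that of WT PC 2, where the remaining PC libraries had 5.35 to 12.6 and the VMs 0 to 6.56. These values of *Clmp* were not recomputed without WT PC 2. The tight junction genes *Cgnl1* and *Clmp* and the endothelial and fibroblast marker sums all lay above the KO VM values in the KO PCs, and the part of those cells in these values was not tested.

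The 10 genes did not vary as 1 block across libraries. Over their 45 pairs, Pearson correlations of log2 normalized counts across the 12 libraries ran from -0.50 for *Dsg2* and *Cxadr* to 0.79 for *Dsp* and *Tjp1*, with a median of -0.01. *Dsc2* and *Ctnna3* had 0.67, and 0.82 once the group means were taken out. The value for *Dsp* and *Tjp1* was not recomputed without WT PC 2, the lowest library for both (6511 and 485.7 normalized counts). Points of such a correlation share a library and its scaling, and PC and VM libraries may share hearts. The mean of the 10 genes, each scaled to unit variance, was lowest in WT PC 2 at -0.79 and highest in KO VM 2 at 0.61. Among 8090 genes compared over the 12 libraries, those most like this mean were *Txlnb* (Pearson r = 0.94, and 0.93 without WT PC 2), *Gtf2h2* (0.92 and 0.89), *Gpatch1* (0.90 and 0.81), *Lmod3* (0.90 and 0.81) and *Anxa6* (0.90 and 0.82). They were picked as the highest of so many genes, so high values were bound to arise. The values without WT PC 2 are for genes picked with it.

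The genes lie on 6 chromosomes (GRCm38). *Dsc2* (chr18:20030633-20059554), *Dsg2* (chr18:20558074-20604521), *Cdh2* (chr18:16588877-16809246) and *Ctnna1* (chr18:35118859-35254779) share chromosome 18, and *Pkp2* (chr16:16213318-16272712) and *Cxadr* (chr16:78301489-78359774) chromosome 16. *Dsp* is at chr13:38151294-38198577, *Jup* at chr11:100368958-100397763, *Ctnna3* at chr10:63430098-65003667 and *Tjp1* at chr7:65296165-65527781. All are protein coding, with 5277 to 9659 bases of merged exons. *Lrrtm2*, on the strand opposite *Ctnna1*, shares 95 exon bases with it and had 4 to 103 counts, and *Btg3*, opposite *Cxadr*, shares 695 and had 0 to 16. *Gm16090* shares 330 exon bases with *Dsg2* and *Gm10129* shares 499 with *Dsp*, both from the opposite strand, with at most 5 and 8 counts. Whether the counting used strand is not given in the sources used here, so reads in shared exons cannot be assigned with certainty. *Lrrtm3* lies within *Ctnna3* on the opposite strand, shares no exon bases and had 1 to 47 counts.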

How the data were processed

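The authors deposited 1 table for each library, with unnormalized counts of read pairs on 48526 genes. Per the labels, RNA was extracted with PicoPure, amplified and made into libraries with the NuGEN Ovation Trio low-input kit, sequenced as 50 bp paired ends, aligned to mm10 with STAR 2.5.0c under annotation GRCm38.74 and counted with HTSeq 0.6.0. Amplification without molecular identifiers means that counts are not independent molecules. Pairs not assigned to a gene stayed out of all totals. Groups and replicate numbers came from the sample titles, while the source names give the WT libraries other numbers.

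Genes were tested if their normalized counts averaged above 5 in the libraries compared, with edgeR 4.0.16 (R 4.3.3, TMM normalization, quasi-likelihood test), and p-values were adjusted over all genes tested by Benjamini-Hochberg. Comparisons of 3 against 3 libraries were fitted on those 6, and the averaged effects and their difference on all 12. The 95% intervals use the fit's SE and its t quantile. Libraries cover 1532393 to 6761356 counts outside the mitochondrial genome, and the 10 genes had at least 111 counts each in every library. Alternatives used other size factors and filters, DESeq2 1.42.0, limma voom 3.58.1 with sample quality weights, thinned counts, a replicate block, a length and GC correction, and each library left out. Scripts were tested on simulated counts. Positions and exon lengths came from GENCODE M21 (GRCm38), which 382 of the identifiers, holding 0.00511% of counts, did not match. TPM was computed from those lengths.

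The 10 genes, the 48 other junction genes and the cell type markers were chosen with earlier results of these data known. Named by rule were the 10 genes, the listed junction genes with the smallest p-values of each comparison, *Ncam1* and *Cntn2* as checks, and the 5 genes most like the members' mean among those with a mean normalized count of at least 20. A few of the listed junction genes are not reported here.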

Additional observations from a re-analysis of the deposited data

How the results depend on the processing

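None of the 10 genes passed an adjusted p of 0.05 in any of 1410 recomputed values (7 comparisons, 10 genes, 18 or 23 alternatives), and the smallest adjusted p was 0.0758, for *Dsp* in KO PCs against KO VMs. The sign of an uncalled log2 fold change turned in 117 of them. Counts of members with an unadjusted p under 0.05 moved as follows, with the cause not tested. In KO PCs against KO VMs (1 member, *Dsp*) the count was 0 with cardiomyocyte genes as size factors and in one fit of all 12 libraries, 4 (*Dsg2*, *Dsp*, *Cdh2*, *Ctnna1*) with a length and GC correction, against 13.6% of all genes, and 0 to 0 with any library left out. In KO VMs against WT VMs (0) it was 0 to 1 with a library left out, *Cdh2* passing without WT VM 3, against 4.78% of all genes. For PCs against VMs over both genotypes (1, *Cdh2*) it was 0 with cardiomyocyte size factors or no filter. There it was 2 with the length and GC correction, against 13.2% of all genes, and 0 to 3 with a library left out. The 0 arose without KO PC 1, WT VM 2 or WT VM 3. The 2 and 3 arose without WT PC 1 and WT PC 3, against 16.8% and 13.8% of all genes. For KO against WT over both cell types (1, *Cdh2*) it was 0 with cardiomyocyte size factors, no filter or the length and GC correction, and 0 to 1 with a library left out, the 0 arising without KO PC 3, KO VM 1 or WT VM 1. The members' median in KO PCs against WT PCs (0.03) was -0.15 with the length and GC correction and -0.10 to 0.20 with a library left out, and the median difference of genotype effects (-0.09) was -0.29 with that correction.

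Whether libraries with the same replicate number are paired was not settled. Their correlations were 0.21, 0.08 and 0.15 in WT PCs and VMs, where the means with the other numbers were -0.11, -0.04 and -0.07. In KO they were -0.01, 0.12 and 0.02 against 0.01, -0.05 and -0.02. The same number thus correlated better except for KO number 1. Group means had been taken out first, which pushes the mean with the other numbers to the opposite sign. With a replicate block, the count of members with an unadjusted p under 0.05 in PCs against VMs over both genotypes was 2 (*Dsg2*, *Cdh2*). That threshold was then reached by 10.8% of all genes. With the block and the length and GC correction together the count of members was 3 there, against 12.3% of all genes. In KO PCs against KO VMs it was 5, against 14.7% of all genes, and for KO against WT over both cell types 0. The members' medians were -0.13 in KO PCs against WT PCs and -0.30 for the difference of genotype effects. Depth limits the lower genes most, *Jup* having 111 counts in WT PC 2.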
